A study of Mus musculus with 6 samples.

Results

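The genes described here are 7 CC chemokines of monocytes and macrophages, Ccl2, Ccl7, Ccl12, Ccl8, Ccl24, Ccl6 and Ccl9, and the receptor Ccr2. These 8 genes of the 32285 in the feature table were matched by symbol. Their unique molecular identifiers (UMIs, each standing for 1 captured RNA molecule) were counted in every sample in the myeloid states and in fibroblasts. The study examined corin, a dual inhibitor of LSD1 and HDAC1 in the CoREST repressor complex, by scRNA-Seq of CD45+ cells from B16-F10 melanoma tumors grown in C57BL/6 mice. The 3 αPD-1 samples (labelled PD1) and the 3 αPD-1 + corin samples (labelled corin + PD1) came from female mice aged 6 to 10 weeks, and both groups received 150 µg of anti-PD1 antibody 3 times a week from day 7 after tumor inoculation. The combination group also received 200 µg of corin by daily intraperitoneal injection from day 6. The corresponding control injection was 5% DMSO in PBS. Each arm had 10 mice. The labels do not say which mice, or how many, each sample holds, nor the day of collection, so the spread between samples may be partly technical.

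CC chemokines are small secreted proteins that bind G protein-coupled receptors on leukocytes and direct their migration. CCL2, CCL7 and CCL12 act on CCR2, the receptor by which Ly6C-high monocytes leave the bone marrow and enter inflamed tissue and tumors, where many of them become macrophages. CCL8 in the mouse acts mainly on CCR8, CCL24 (eotaxin-2) acts on CCR3 of eosinophils, and CCL6 and CCL9 are rodent chemokines that act on CCR1.

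On the GRCm39 build used for the counts, 6 of the 7 chemokine genes lie on chromosome 11. Ccl2 (81926397 to 81928279), Ccl7 (81936532 to 81938351), Ccl12 (81992645 to 81994466) and Ccl8 (82006007 to 82007625) follow each other on the forward strand. Ccl9 (83463745 to 83473161) and Ccl6 (83478708 to 83483913) lie next to each other on the reverse strand, Ccl24 is on chromosome 5 (135598668 to 135601905, reverse strand) and Ccr2 is on chromosome 9 (123901982 to 123913594, forward strand). All are annotated as protein coding, and the coordinates span the whole gene with its exons, introns and untranslated regions. RefSeq promoters of GRCm38.p6, from 250 bases before to 50 bases after the gene start, matched 5 of the 8 genes. Those of Ccl8 and Ccl12, neighbours on the chromosome, and of Ccl6 and Ccl9, the pair of members with the most alike levels, are printed because the results below set these genes side by side. Capitals mark matches on either strand to the TATA box TATAAA, the ETS motif AGGAAG, the AP-1 motif TGANTCA, the NF-κB motif (GGG, any 5 bases, then CC), the C/EBP motif TTGCNNAA or the STAT motif TTCNNNGAA.
Ccl8: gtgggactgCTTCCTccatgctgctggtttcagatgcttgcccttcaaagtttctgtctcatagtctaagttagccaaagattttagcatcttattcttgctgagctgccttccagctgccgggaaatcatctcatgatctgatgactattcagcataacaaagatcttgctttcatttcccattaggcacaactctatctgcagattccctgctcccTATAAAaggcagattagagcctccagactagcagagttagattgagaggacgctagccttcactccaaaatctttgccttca
Ccl12: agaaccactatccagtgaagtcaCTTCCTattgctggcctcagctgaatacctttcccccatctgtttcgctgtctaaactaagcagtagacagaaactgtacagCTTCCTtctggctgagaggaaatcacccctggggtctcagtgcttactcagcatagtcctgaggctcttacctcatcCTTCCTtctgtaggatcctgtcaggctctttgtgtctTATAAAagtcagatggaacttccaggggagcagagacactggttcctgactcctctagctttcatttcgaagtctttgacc
Ccl6: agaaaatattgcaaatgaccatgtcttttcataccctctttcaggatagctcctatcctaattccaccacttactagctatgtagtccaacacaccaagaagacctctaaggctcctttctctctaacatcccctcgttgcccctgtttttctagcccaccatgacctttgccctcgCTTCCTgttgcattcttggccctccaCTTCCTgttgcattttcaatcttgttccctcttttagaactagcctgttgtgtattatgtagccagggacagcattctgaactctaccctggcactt
Ccl9: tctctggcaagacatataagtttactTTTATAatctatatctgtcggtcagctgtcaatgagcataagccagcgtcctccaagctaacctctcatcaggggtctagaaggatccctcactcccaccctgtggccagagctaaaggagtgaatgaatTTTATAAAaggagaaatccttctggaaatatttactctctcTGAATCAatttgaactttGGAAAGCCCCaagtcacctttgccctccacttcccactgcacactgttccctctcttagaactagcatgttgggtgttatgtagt
The Ccl8 promoter (chr11:82114935-82115234, forward strand) held 1 ETS and 1 TATA match, and the Ccl12 promoter (chr11:82101595-82101894, forward strand) held 3 ETS matches and 1 TATA match. The Ccl6 promoter (chr11:83593038-83593337, reverse strand) held 2 ETS matches. The Ccl9 promoter (chr11:83578587-83578886, reverse strand) held 1 AP-1 match, 1 NF-κB match and 3 TATA matches, of which the pair in the longer run of capitals overlap on opposite strands. The longest run of bases shared by Ccl6 and Ccl9 was 13 (gccctccacttcc), against 11 for Ccl8 and Ccl12 (gctttcatttc). Among the 32851 promoters of the table, 35.4% held the ETS motif, 13.6% TATA, 7.81% AP-1, 50.8% NF-κB, 10.8% C/EBP and 8.3% STAT. The ETS and NF-κB motifs are thus common, and the others less so. These matches are letters in a window and not measured binding sites. The Ccr2 promoter held no match to the 6 motifs. Ccl2, Ccl7 and Ccl24 had no entry in the table.

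The deposited matrices held 52899 barcodes with 52281422 to 84276739 UMIs per sample, and 28865 cells were kept. Any 2 libraries shared at most 0.457% of the smaller library's barcodes. Clusters were called monocyte-like, macrophage-like and so on from fixed marker lists, with the 8 members and the other CC genes left out of clustering, and are written without the suffix: Lyve1 macrophages (1235 cells), Ppbp macrophages (1363), Mmp12 macrophages (948), other macrophages (4888, 5 clusters, of which 1 is also led by Mmp12), monocytes (2636), neutrophils (2351), dendritic cells (DCs, 1888) and fibroblasts (992), the last present despite the CD45+ selection. Lyve1 and Ppbp macrophages came largely from 1 library: αPD-1 + corin replicate 1 gave 77.2% and 77.1% of their cells. αPD-1 replicate 2 had 7 Ppbp macrophages and was left out of that state, which leaves 2 samples against 3. The Ppbp marker list was met by 5 of its 8 genes. Neutrophils numbered 20, 17 and 19 cells in the αPD-1 samples, against 881, 1306 and 108 with corin. αPD-1 + corin replicate 3 stood apart in the genes described here: it had the lowest level of the 3 αPD-1 + corin samples in 55 of 64 pairs of gene and state, and replicate 1 had the highest in 42. Levels are given as CPM, the UMIs of a gene scaled to one fixed total of UMIs per state and sample (counts per 1000000), a scale for comparing samples and states, and always in the order replicate 1, 2, 3. Differences are log2 fold changes, αPD-1 + corin over αPD-1, with their SE from edgeR's quasi-likelihood test on summed counts, and p-values are adjusted over all genes tested in the state by the Benjamini-Hochberg method.

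Monocytes and macrophages held most of the UMIs of the chemokines. They made up 25.7 to 59.6% of the cells kept in a sample and carried 62.6 to 93.4% of the UMIs of each chemokine. For Ccr2 the share was lower, 43.7 to 67.4%. The states differed in which chemokine they expressed most. In the αPD-1 samples, the level of Ccl2 was highest in Mmp12 macrophages (2198 to 4373 CPM) and Ppbp macrophages (1876 to 3990 CPM), whose ranges overlapped, and next in monocytes (1103 to 1941 CPM). Ccl8 was highest in Lyve1 macrophages (2326 to 5011 CPM), followed by Ppbp macrophages, whose range reached into theirs, and by other macrophages (748 to 1127 CPM), and it was 42.8 to 152 CPM in Mmp12 macrophages. Ccl6 was 2854 to 5399 CPM in the αPD-1 samples of Lyve1, Ppbp and Mmp12 macrophages that entered the fits. Ccr2 had its highest level in monocytes (405 to 493 CPM), above DCs (206 to 240 CPM) and Mmp12 macrophages (168 to 212 CPM), whose ranges overlapped.

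**Figure D1:**
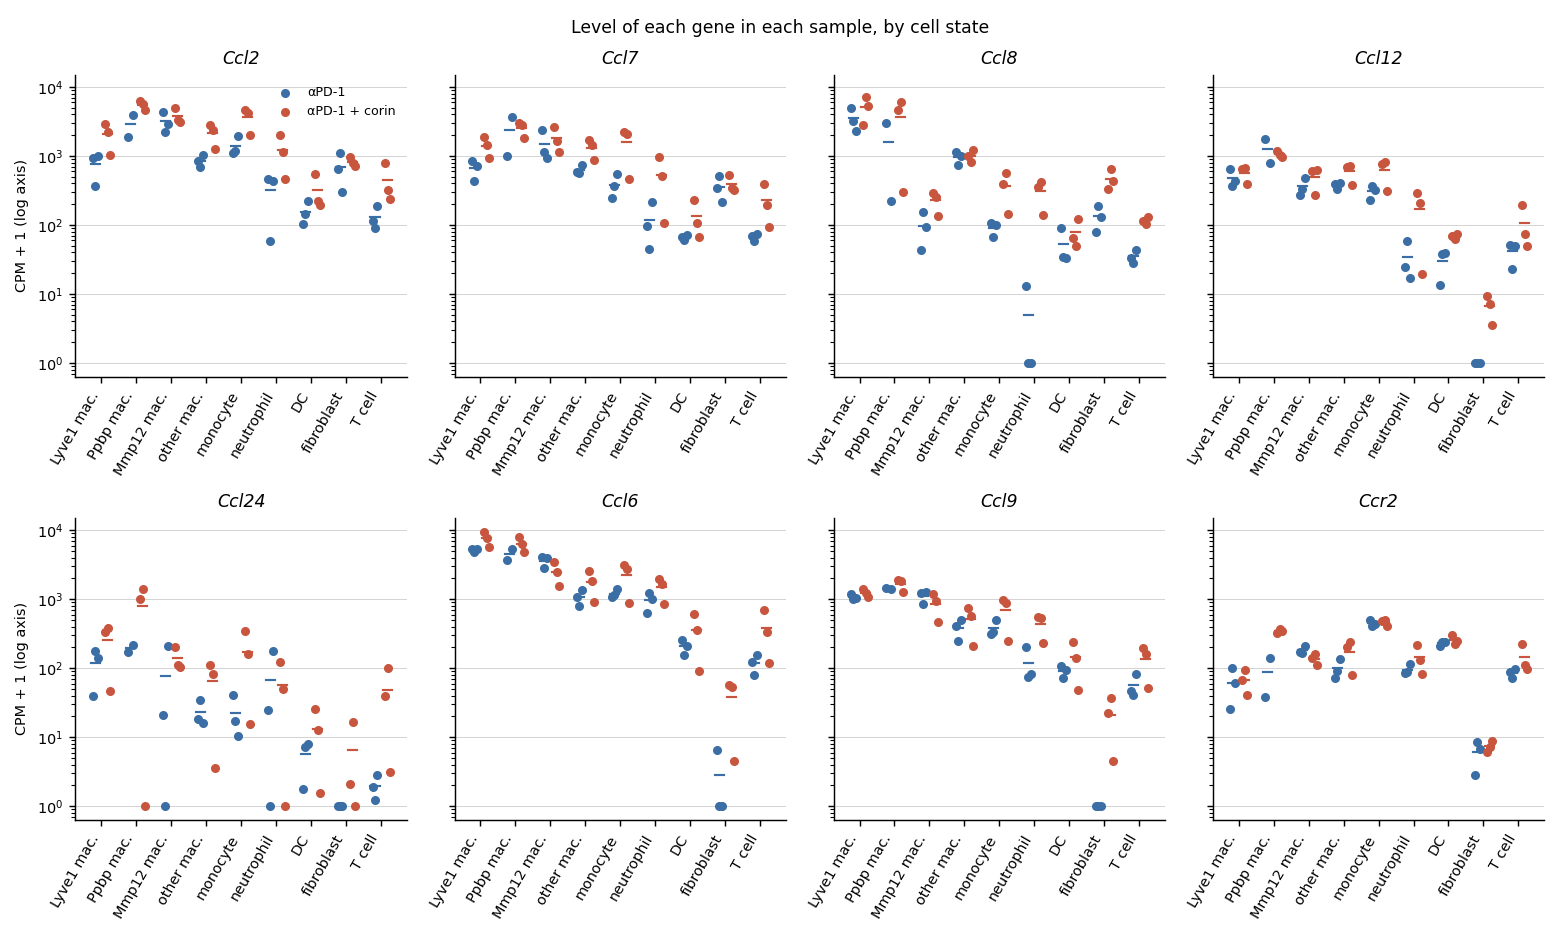
Level of each of the 8 genes by cell state on a log axis of CPM + 1. Each point is 1 sample, with αPD-1 and αPD-1 + corin in separate colours, and T cells are shown as background; the low αPD-1 + corin point in most panels is replicate 3, and Ccl8 in Lyve1 macrophages reaches 7095 CPM.

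**Figure D2:**
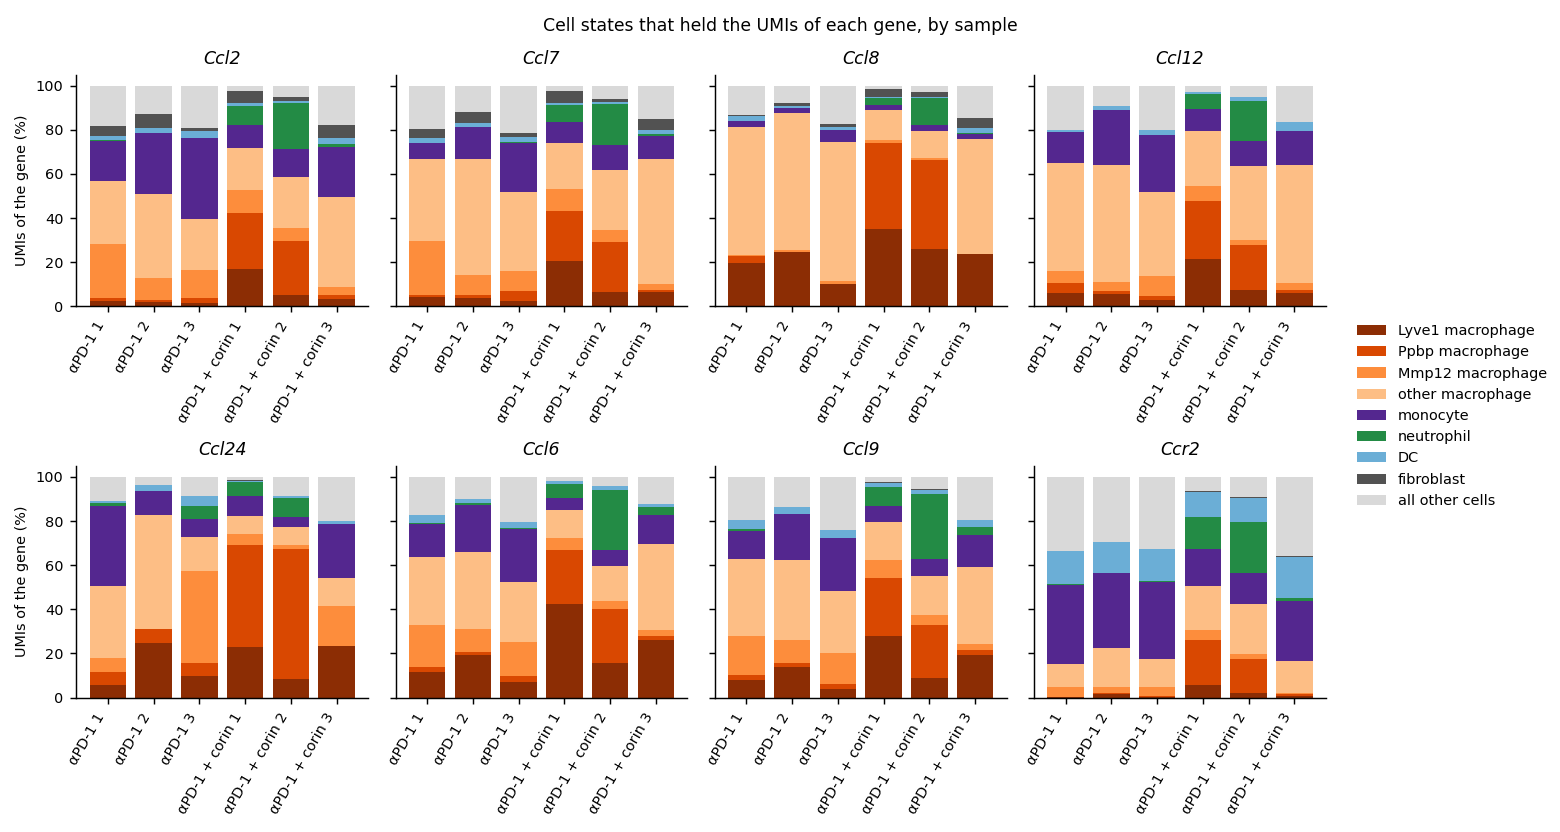
Share of the UMIs of each gene (%) held by each cell state, 1 bar per sample. Monocytes and macrophages together hold 62.6 to 93.4% of the UMIs of each chemokine and 43.7 to 67.4% of those of Ccr2.

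Ccl2, the main CCR2 ligand, was higher with corin in pooled monocytes, a state whose mix of clusters differed between samples, as given below. The level of Ccl2 was 1103, 1170 and 1941 CPM in the αPD-1 samples and 4575, 4242 and 2034 CPM in the αPD-1 + corin samples. The groups did not overlap, but αPD-1 + corin replicate 3 was close to αPD-1 replicate 3. The log2 difference was 1.44 ± 0.29 (SE, 3 samples against 3, edgeR adjusted p = 0.0340). Ccl2 in other macrophages was 832, 691 and 1033 CPM against 2841, 2369 and 1271 CPM. The groups again did not overlap, and the difference of 1.46 ± 0.27 was just outside the threshold (edgeR adjusted p = 0.0509). In Lyve1 macrophages the level was 938, 371 and 985 CPM against 2887, 2249 and 1033 CPM, also without overlap (1.59 ± 0.39, edgeR adjusted p = 0.141). Mmp12 macrophages, where Ccl2 was already high, had 4373, 2198 and 2951 CPM against 5039, 3336 and 3123 CPM, groups that overlapped (0.28 ± 0.24, edgeR adjusted p = 0.883). The difference was 0.84 ± 0.36 in Ppbp macrophages, 2.04 ± 0.59 in neutrophils, 1.11 ± 0.39 in DCs and 0.21 ± 0.40 in fibroblasts, and it did not pass the test in any of these (edgeR adjusted p = 0.263, 0.152, 0.365 and 0.773). The mean level in DCs with corin, 318 CPM, was below the mean of 448 CPM in T cells of the same group.

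Ccl7, another CCR2 ligand that also acts on CCR1 and CCR3, was also higher with corin in monocytes, at 246, 366 and 538 CPM against 2243, 2082 and 468 CPM. Replicates 1 and 2 of the αPD-1 + corin group were far above every αPD-1 sample and replicate 3 lay inside the αPD-1 range. The log2 difference was 2.14 ± 0.47 (edgeR adjusted p = 0.0474). In other macrophages Ccl7 was 593, 572 and 736 CPM against 1680, 1431 and 862 CPM, without overlap (1.18 ± 0.23, edgeR adjusted p = 0.0509). In Lyve1 macrophages it was 846, 430 and 704 CPM against 1857, 1438 and 922 CPM, also without overlap (1.24 ± 0.29, edgeR adjusted p = 0.127). Ccl7 in Ppbp macrophages differed by 0.06 ± 0.46 and in Mmp12 macrophages by 0.29 ± 0.33, with overlapping groups in both.

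Ccl12, the mouse CCR2 ligand encoded between Ccl7 and Ccl8, did not pass the test in any state. In monocytes it was 227, 365 and 323 CPM against 758, 813 and 305 CPM (1.11 ± 0.31, edgeR adjusted p = 0.0850). Replicates 1 and 2 of the combination group were again above all αPD-1 samples, and replicate 3 was not. In DCs the αPD-1 levels of 12.3, 37.4 and 37.7 CPM lay below those with corin, 67.7, 60.5 and 72.7 CPM (1.27 ± 0.30, edgeR adjusted p = 0.160). The DC levels with corin were below those of T cells of the same sample in replicates 1 and 2 (192 and 73.2 CPM). In replicate 3 they were above (48.2 CPM in T cells), and the part of free RNA was not tested. Ppbp macrophages had the highest Ccl12 levels of the states in both groups, and the difference there was negative, -0.35 ± 0.34. Fibroblasts held 0 UMIs of Ccl12 in the αPD-1 samples and 39, 4 and 3 with corin. The levels in fibroblasts with corin, 8.42, 6.25 and 2.60 CPM, lay below those of T cells of the same samples (192, 73.2 and 48.2 CPM), and the source of these UMIs was not tested.

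Ccl8, a chemokine of tissue macrophages, passed the test in more states than any other member: monocytes, neutrophils and fibroblasts. In monocytes it was 105, 65.3 and 99.3 CPM against 390, 571 and 143 CPM, without overlap (2.11 ± 0.40, edgeR adjusted p = 0.0300). In fibroblasts it was 77.0, 186 and 131 CPM against 332, 639 and 430 CPM, with a clear gap between the groups (1.82 ± 0.38, edgeR adjusted p = 0.0336). Each of these states had a low level of Ccl8 in the αPD-1 samples. In the states with the highest levels the groups overlapped: Lyve1 macrophages had 5011, 3224 and 2326 CPM against 2800, 7095 and 5301 CPM (0.64 ± 0.32, edgeR adjusted p = 0.482), and other macrophages 1127, 748 and 1005 CPM against 987, 810 and 1235 CPM (0.21 ± 0.21, edgeR adjusted p = 0.637). In Mmp12 macrophages the level was 42.8, 152 and 91.8 CPM against 293, 251 and 134 CPM (1.36 ± 0.35, edgeR adjusted p = 0.266). Ppbp macrophages ranged from 218 to 3020 CPM in the αPD-1 samples tested and from 303 to 6017 CPM with corin.

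In neutrophils, a single UMI of Ccl8 was counted over the 3 αPD-1 samples (1, 0 and 0 UMIs) and 1277, 2599 and 60 UMIs over the αPD-1 + corin samples. These UMIs were found in 1 of 56 cells and in 341 of 2295 cells. Pooled over each group, the level was 83.0 times higher with corin (95% exact interval of counting error alone 14.9 to 3278). The fitted log2 difference of 6.18 ± 0.90 (edgeR adjusted p = 0.0112) depends on how the 0 counts are treated. Without αPD-1 replicate 1 it was 12.31 ± 2.23 (edgeR adjusted p = 0.182), and over the settings that kept all samples it ran from 3.71 to 12.01. The summed level of 10 macrophage markers in the neutrophils also differed, at 1472, 1572 and 1705 CPM against 5725, 3671 and 2808 CPM, with all 10 markers detected. Markers of B cells went the other way in these neutrophils, with a summed level of 854, 1558 and 2825 CPM in the αPD-1 samples against 199, 133 and 21.0 CPM. Of the macrophage markers, Apoe (2.26 ± 0.32) and C1qb (1.67 ± 0.31), named after their values were seen, passed the test in neutrophils. In fibroblasts the same 10 markers summed to 227, 156 and 185 CPM against 323, 391 and 499 CPM, and Apoe, also named afterwards, differed by 2.52 ± 0.42. The part of RNA of macrophages or B cells in the Ccl8 results of neutrophils and fibroblasts was not tested. The ratio of Ccl8 to Ccl2 UMIs in neutrophils with corin was 0.173, 0.377 and 0.308, in fibroblasts 0.343, 0.802 and 0.602, and in Lyve1 macrophages 0.970, 3.16 and 5.13. In other macrophages with corin the ratio was 0.347, 0.342 and 0.972, and in monocytes 0.0852, 0.135 and 0.0703. T cells with corin, the background, had 0.142, 0.322 and 0.560.

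Ccl24, the eosinophil chemokine, was low in most cells, and its values were spread widely over the samples. In monocytes it was 39.5, 16.2 and 9.46 CPM against 346, 160 and 14.4 CPM (3.14 ± 0.82, edgeR adjusted p = 0.0708). In Ppbp macrophages, where its level was highest, it was 169 and 218 CPM in the pair of αPD-1 samples tested against 1005, 1413 and 0 CPM (2.12 ± 0.98, edgeR adjusted p = 0.293). Each of these αPD-1 values came from a single cell, 1 of 11 and 1 of 13, with 9 and 11 UMIs. αPD-1 + corin replicates 1 and 2 thus had the highest levels and replicate 3, with 14 Ppbp macrophages, had no UMI, which allows up to 65.0 CPM. Over all cells kept the 3 samples of the combination group had 7245, 3379 and 94 UMIs, and the αPD-1 samples 144, 244 and 194.

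Ccl6 and Ccl9, CCR1 ligands of the myeloid lineage, were detected in every macrophage state and in neutrophils. In Lyve1 macrophages Ccl6 was 5375, 4866 and 5275 CPM against 9581, 7643 and 5786 CPM, without overlap (0.70 ± 0.18, edgeR adjusted p = 0.149). Mmp12 macrophages had 4049, 2854 and 3910 CPM of Ccl6 against 3505, 2474 and 1531 CPM, overlapping groups with a negative difference of -0.51 ± 0.24 (edgeR adjusted p = 0.725). Ccl6 in monocytes was 1068, 1146 and 1396 CPM against 3127, 2730 and 896 CPM, where replicate 3 of the combination group was the lowest of all 6 samples (0.98 ± 0.34, edgeR adjusted p = 0.149). Ccl9 in neutrophils was 202, 72.8 and 81.2 CPM against 558, 528 and 231 CPM, without overlap (1.98 ± 0.46, edgeR adjusted p = 0.0827). The αPD-1 values came from 17, 5 and 5 UMIs. T cells of the same αPD-1 samples had 46.1, 40.0 and 82.5 CPM, so neutrophils were not above them in replicate 3. With corin, neutrophils were above T cells in each sample. The part of free RNA in Ccl9 of neutrophils was not tested. In the macrophage states and monocytes Ccl9 differed by -0.34 ± 0.26 (Mmp12) to 0.95 ± 0.39 (monocytes), and no state passed the test. Fibroblasts held 0 UMIs of Ccl9 in the αPD-1 samples and had 21.4, 36.0 and 3.46 CPM with corin, below the 197, 162 and 51.4 CPM of T cells of the same samples. Their Ccl6, 55.9, 53.2 and 3.46 CPM with corin, also lay below that of T cells (700.2, 330.4 and 118 CPM). The source of the UMIs of both genes in fibroblasts was not tested.

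Ccr2, the receptor of the CCL2 group, showed nearly the same level in both groups of monocytes, its main site, at 493, 405 and 443 CPM against 482, 506 and 407 CPM (0.13 ± 0.14, edgeR adjusted p = 0.637). Ppbp macrophages had 37.5 and 139 CPM in the αPD-1 samples tested, from 2 and 7 UMIs, against 328, 372 and 347 CPM with corin. The groups did not overlap, and the difference of 1.92 ± 0.45 did not pass the test (edgeR adjusted p = 0.0763). Ccr2 in Mmp12 macrophages was 173, 168 and 212 CPM against 142, 158 and 110 CPM, non-overlapping groups with the lower values in the combination group (-0.39 ± 0.21, edgeR adjusted p = 0.735). In other macrophages it was 70.4, 90.9 and 137 CPM against 200, 236 and 77.5 CPM (0.90 ± 0.37, edgeR adjusted p = 0.260).

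**Figure D3:**
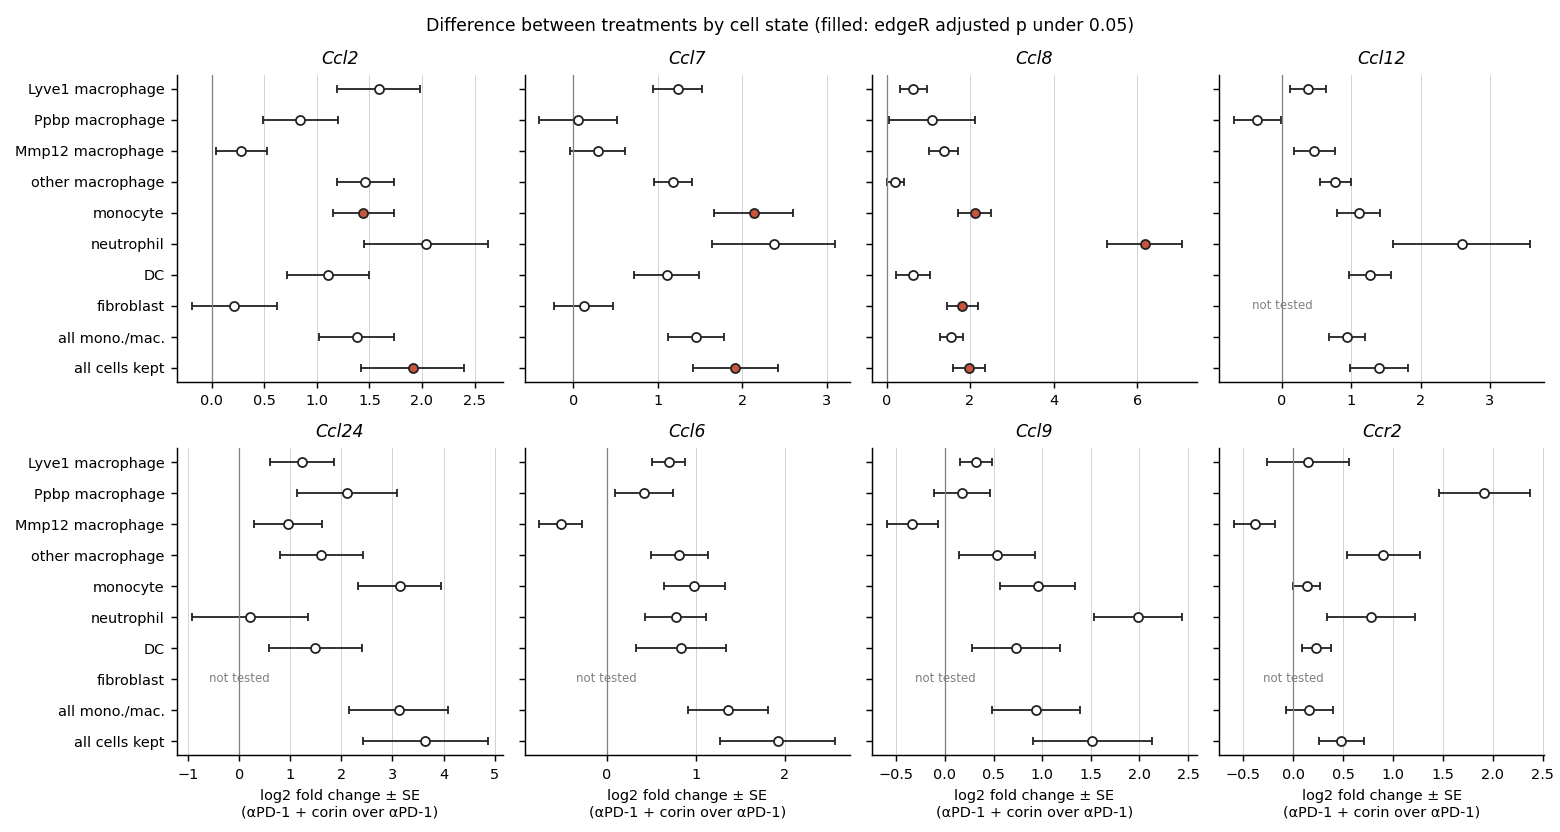
Log2 fold change (αPD-1 + corin over αPD-1) with its SE, for each gene by cell state, from edgeR fits of 3 samples against 3 (2 against 3 in Ppbp macrophages). Filled points have an adjusted p under 0.05: Ccl2, Ccl7 and Ccl8 in monocytes, Ccl8 in neutrophils and fibroblasts, and Ccl2, Ccl7 and Ccl8 over all cells kept.

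Counted over states, 3 of 8 members passed the test in monocytes, all higher, where 2.08% of the 8841 genes tested passed in either direction. In neutrophils 1 of 8 passed (0.866% of all genes) and in fibroblasts 1 of the 3 members that could be tested (2.46%). The count was 0 of 8 in Lyve1 macrophages (0.178% of all genes), Ppbp macrophages (1.48%), Mmp12 macrophages (0.141%), other macrophages (0.526%) and DCs (0.328%) with edgeR. At an unadjusted edgeR p under 0.05 the counts of members in these states were 3, 2, 1, 5 and 3 of 8. Of all genes tested there, 576 of 5058, 152 of 878, 345 of 4953, 1803 of 10837 and 982 of 9460 had such a p. With DESeq2 2, 0, 0, 3 and 1 members passed, and the share of all genes that passed with DESeq2 is not given here. In monocytes DESeq2 called 2 members, Ccl2 and Ccl8, and the call of Ccl7 was lost. The median log2 difference of the members was 1.28 in monocytes, 0.86 in other macrophages, 0.67 in Lyve1 macrophages, 0.63 in Ppbp macrophages, 0.28 in Mmp12 macrophages, 0.97 in DCs and 2.01 in neutrophils. The median over all genes tested was between -0.02 and 0.02 in each of these states.

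Several of these calls were lost when 1 sample was left out, which also leaves fewer samples for the test. The part of the sample itself and of the smaller number of samples in these losses was not tested. In monocytes the calls of Ccl2, Ccl7 and Ccl8 were lost when any 1 of αPD-1 replicates 1, 2 and 3 or αPD-1 + corin replicates 1 and 2 was left out, with edgeR adjusted p up to 0.196, 0.221 and 0.153 and log2 differences that over all 6 omissions stayed between 1.25 and 1.75, 1.82 and 2.57, and 1.63 and 2.50. Neutrophil Ccl8 was lost without any 1 of the αPD-1 replicates (edgeR adjusted p up to 0.194), and fibroblast Ccl8 without αPD-1 replicate 1, 2 or 3 or αPD-1 + corin replicate 2 (edgeR adjusted p = 0.135, 0.0521, 0.0805 and 0.120). Leaving out αPD-1 + corin replicate 3 had the opposite effect. Without it 7 of 8 members passed in monocytes (13.9% of all genes), 7 in other macrophages (8.42%) and 4 in Lyve1 macrophages (3.32%), all higher. Ccl2 was then 1.94 ± 0.29 in Lyve1 macrophages (edgeR adjusted p = 0.00175) and 1.70 ± 0.18 in other macrophages (edgeR adjusted p = 0.00101). Ccl24 in monocytes was 3.72 ± 0.35 (edgeR adjusted p = 7.85e-06). This sample was the lowest of its group in 55 of 64 pairs of gene and state and the highest in 5. The difference of Ccl8 in other macrophages went from 0.21 to -0.0076 without it. All 3 monocyte calls were also lost at clustering resolution 1.2, that of Ccl2 with at most 5% mitochondrial UMIs and that of Ccl8 with at least 200 genes per cell. Ccl8 in neutrophils was lost with LogNormalize or without doublet removal, and Ccl8 in fibroblasts without the limit of 4000 genes per cell.

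The effect of corin differed between the 5 monocyte and macrophage states for 3 of the 8 members. In 1 fit over 29 sums with sample as a term, the interaction of state and treatment passed the test for Ccl6 (edgeR adjusted p = 0.00189), Ccr2 (edgeR adjusted p = 0.0137) and Ccl2 (edgeR adjusted p = 0.0331), where 1.79% of the 10524 genes tested passed. Ccl6 ranged from -0.51 in Mmp12 macrophages to 0.98 in monocytes, Ccr2 from -0.39 in Mmp12 to 1.92 in Ppbp macrophages, and Ccl2 from 0.28 in Mmp12 to 1.59 in Lyve1 macrophages. For Ccl7, Ccl9, Ccl24, Ccl8 and Ccl12 the interaction did not pass the test (edgeR adjusted p = 0.0717, 0.0907, 0.352, 0.528 and 0.528). All 3 calls were lost without αPD-1 replicate 1 (edgeR adjusted p = 0.0816, 0.203 and 0.182 for Ccl6, Ccr2 and Ccl2). The Ccl2 call was also lost without αPD-1 replicate 2 (edgeR adjusted p = 0.0842), and those of Ccl2 and Ccr2 without αPD-1 + corin replicate 1 (0.289 and 0.168, edgeR adjusted) or replicate 2 (0.303 and 0.0784).

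The monocyte clusters were each fitted alone after the pooled results had been seen, and a difference between clusters was not tested. Monocytes led by the interferon-response genes Ifit2 and Cxcl10 (1210 cells, 5 of 10 monocyte markers among monocytes and macrophages) had 1397, 1261 and 1954 CPM of Ccl2 against 4296, 3745 and 2295 CPM (1.30 ± 0.23, edgeR adjusted p = 0.0130). In the same cells Ccl7 differed by 2.49 ± 0.44 (edgeR adjusted p = 0.0130) and Ccl8 by 2.72 ± 0.56 (edgeR adjusted p = 0.0319). Monocytes led by Chil3 and Hp (688 cells), which met 10 of 10 monocyte markers and had the highest Ccr2 level (592 to 975 CPM over the 6 samples), differed in Ccl8, Ccl12 and Ccl24. Ccl12 there was 43.5, 26.9 and 38.8 CPM against 327, 90.9 and 115 CPM, without overlap (2.38 ± 0.39, edgeR adjusted p = 0.00522). Ccl8 had 0, 5 and 0 UMIs in 2 of 361 cells against 35, 11 and 86 UMIs in 10 of 327 cells. Ccl24 had 0, 3 and 0 UMIs in 2 cells against 387, 12 and 18 UMIs in 20 cells. Few cells carried these UMIs, and αPD-1 + corin replicate 1 held most of those of Ccl24. Monocytes led by Cxcl2 and Cxcl1 (559 cells) met 5 of 10 monocyte markers. Set against cells other than monocytes and macrophages, they and the Ifit2 and Cxcl10 cluster each met 9 of 10 monocyte and 10 of 10 macrophage markers. In the Cxcl2 and Cxcl1 cluster Ccl2 was already 1975, 4108 and 4229 CPM in the αPD-1 samples, against 5563, 5959 and 3944 CPM (0.64 ± 0.26, edgeR adjusted p = 0.463). This cluster made up 21 of 408, 21 of 396 and 38 of 518 monocytes in the αPD-1 samples. With corin it made up 349 of 629, 94 of 211 and 36 of 474. The part of this mix in the results of pooled monocytes was not tested. Monocytes led by Ace and Adgre4 (179 cells) met 4 of 10 monocyte markers and were fitted with 3 samples against 2. There Ccl2 (0.40 ± 0.45), Ccl6 (-0.52 ± 0.28) and Ccr2 (-0.95 ± 0.59) did not pass the test (edgeR adjusted p = 0.785, 0.437 and 0.515). The other members could not be tested in that cluster. Among the clusters of other macrophages, the cluster led by the MHC class II genes H2-Eb1 and H2-Ab1 differed in Ccl2 (1.72 ± 0.19, edgeR adjusted p = 0.00379) and Ccl7 (1.69 ± 0.23, edgeR adjusted p = 0.0130), and the cluster led by cell-cycle genes in Ccl7 (1.33 ± 0.18, edgeR adjusted p = 0.0359).

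**Figure D4:**
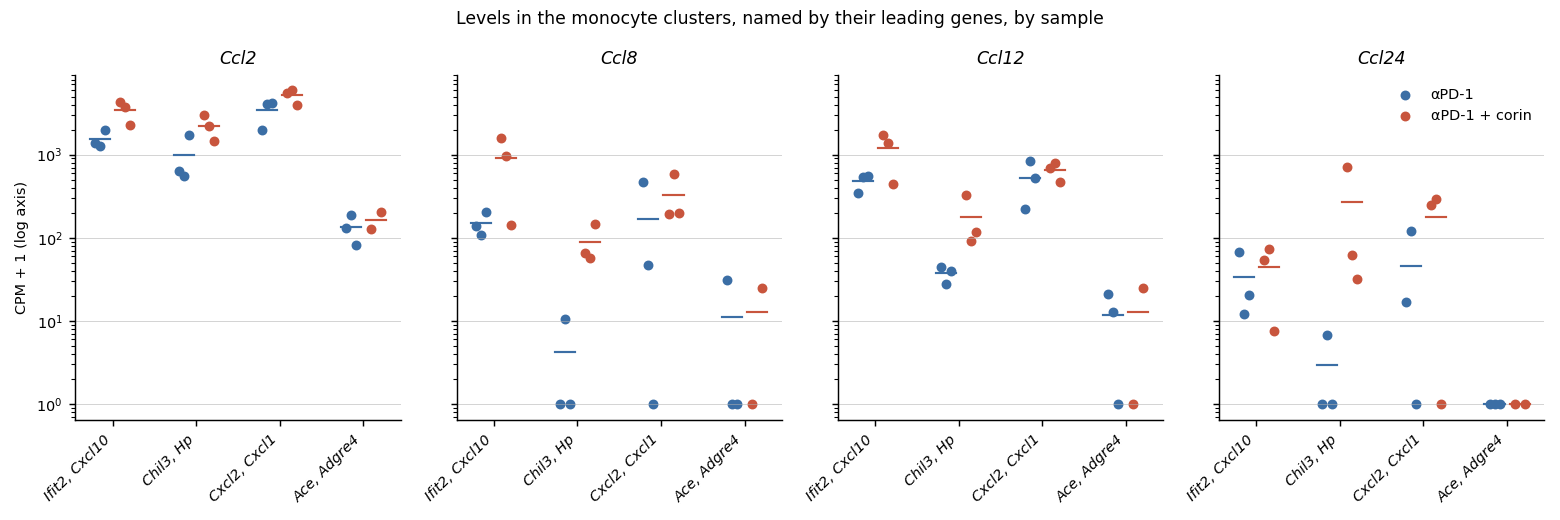
Level of Ccl2, Ccl8, Ccl12 and Ccl24 (CPM + 1, log axis) in each monocyte cluster, named by its leading genes, with 1 point per sample. Ccl2 in the Cxcl2 and Cxcl1 cluster reaches 5959 CPM.

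The share of cells with a UMI was compared after each cell was thinned to 1000 UMIs, because the states differ in depth. At this depth Ccl2 was found in 39.4, 38.2 and 43.7% of monocytes against 81.3, 68.7 and 52.9%, in 36.7, 32.6 and 36.0% of Lyve1 macrophages against 73.3, 72.1 and 53.2%, and in 32.2, 28.5 and 36.6% of other macrophages against 70.3, 61.6 and 41.8%. Every αPD-1 + corin sample was above every αPD-1 sample in these 3 states. The two-sided exact permutation p was 0.1 in each, which this design cannot go below, and the adjusted p was 0.32 over 64 pairs of gene and state. Without thinning, the mean share of monocytes with Ccl2 was 56.9% ± 2.25 (SD, n = 3) against 80.1% ± 10.3. Ccl8 was found in 6.06% ± 1.97 (SD, n = 3) of thinned αPD-1 fibroblasts and in 23.2% ± 2.92 with corin. Ccr2 was found in 27.8% ± 2.52 of thinned monocytes against 29.0% ± 2.98. The median depth was 3080.5 UMIs in αPD-1 monocytes and 2891.5 with corin, and 6 and 13 cells were too shallow for thinning.

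**Figure D5:**
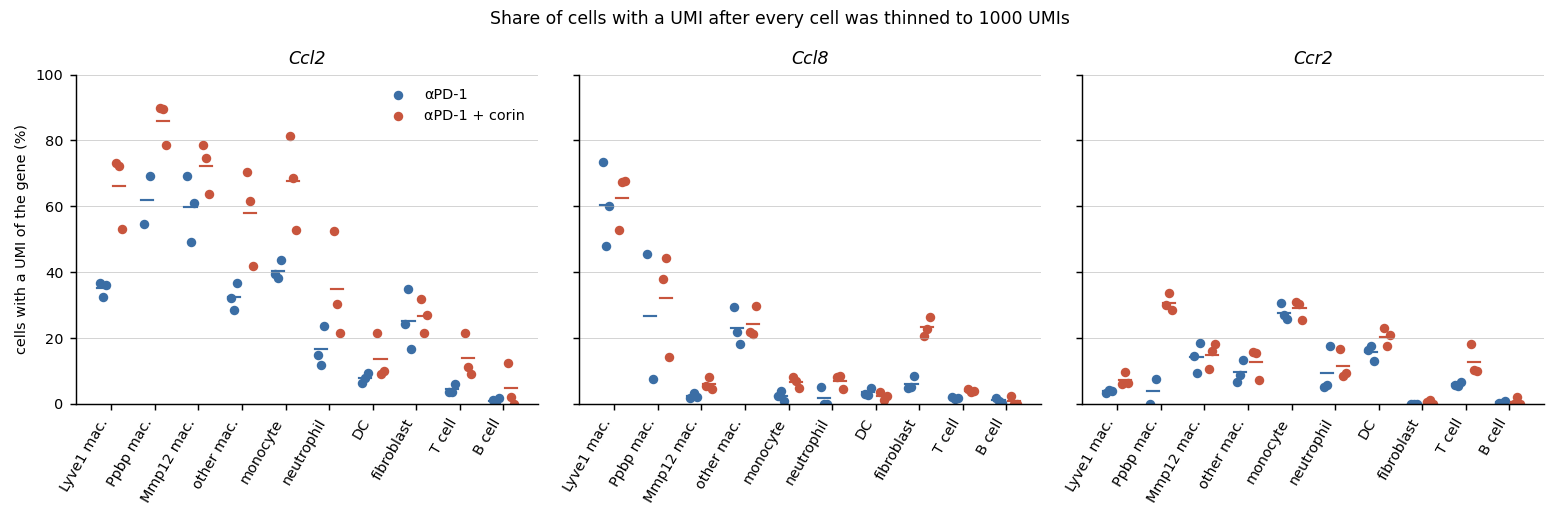
Share of cells with a UMI (%) after thinning to 1000 UMIs, by state and sample, with T cells and B cells as background. Ccl2 in monocytes lies at 38.2 to 43.7% in the αPD-1 samples and at 52.9 to 81.3% with corin.

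T cells and B cells, which are not sources of these ligands in the usual account, gave the background. After thinning, Ccl2 was found in 3.72, 3.58 and 6.03% of T cells against 21.6, 11.3 and 9.01%, so the background itself was higher with corin, and in 1.23, 0 and 1.74% of B cells against 12.5, 2.17 and 0%. Only 106 B cells were kept in the combination group, against 2559. The share of monocytes with Ccl8 was 2.46, 3.80 and 0.971% in the αPD-1 samples, against 2.01, 1.45 and 1.76% of T cells, above T cells in replicates 1 and 2 and below them in replicate 3. By level, monocytes were above T cells in each αPD-1 sample (32.1, 27.4 and 42.9 CPM in T cells). The share with corin was 8.05, 7.11 and 4.90% in monocytes and 8.11, 8.53 and 4.67% in neutrophils, above the 4.47, 3.70 and 3.96% of T cells of the same sample in each case. By level, monocytes with corin had 390, 571 and 143 CPM and neutrophils 351, 425 and 140 CPM. T cells with corin had 113, 102 and 130 CPM, so both states were close to T cells in replicate 3. The share of fibroblasts with Ccl8 was 20.6, 22.8 and 26.4% with corin. The part of free RNA in the Ccl8 results of monocytes and neutrophils was not tested. T cells can express Ccr2 themselves, and B cells, in which 0.274, 0.292 and 0.870% had a Ccr2 UMI against 0, 2.17 and 0%, are the background for it. T cells had a median depth of 2408.5 and 3184.0 UMIs in the αPD-1 and αPD-1 + corin groups.

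Over all monocytes and macrophages together, 0 of 8 members passed the test with edgeR (0.152% of all genes), and 4 passed with DESeq2. The share of all genes that passed with DESeq2 in this pool is not given here, so that count is not read as particular to the members. An unadjusted edgeR p under 0.05 was found for 6 members and for 2205 of the 11815 genes tested. Ccl8 was 931, 671 and 592 CPM against 2052, 2478 and 1233 CPM, without overlap (1.55 ± 0.27, edgeR adjusted p = 0.0799). Without αPD-1 + corin replicate 3, 7 members passed (19.9% of all genes). Over all cells kept, Ccl2, Ccl7 and Ccl8 passed, 3 of 8 where 16.1% of all genes passed. Ccl8 there was 286, 272 and 189 CPM against 1183, 1046 and 485 CPM (1.97 ± 0.38, edgeR adjusted p = 0.0281), Ccl2 differed by 1.91 ± 0.49 (edgeR adjusted p = 0.0475) and Ccl7 by 1.92 ± 0.51 (edgeR adjusted p = 0.0496). Each was lost without any 1 of αPD-1 replicates 1, 2 and 3 or αPD-1 + corin replicate 2 (edgeR adjusted p up to 0.107 for Ccl8, 0.157 for Ccl2 and 0.161 for Ccl7), and Ccl2 and Ccl7 also without αPD-1 + corin replicate 1. In these sums, more cells that express a gene and more RNA of it per cell cannot be told apart, and the share of monocytes and macrophages among the cells was 26.0, 31.6 and 25.7% against 59.6, 33.4 and 35.3%.

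Other CC chemokines were less often measurable. Of 14 other CC ligands, 4 could be tested in monocytes and Ccl4 rose there (0.89 ± 0.16, edgeR adjusted p = 0.0239). In other macrophages 5 were tested and 2 rose, Ccl3 (0.78 ± 0.13, edgeR adjusted p = 0.0457) and the CCR4 ligand Ccl17 (4.50 ± 0.73, edgeR adjusted p = 0.0445). Of 16 genes of the NF-κB response, all tested in monocytes, 4 rose: the neutrophil chemokines Cxcl1 (2.83 ± 0.43) and Cxcl2 (1.59 ± 0.21) and the interleukins Il1a (1.92 ± 0.24) and Il1b (0.58 ± 0.13). Cxcl2, Cxcl1 and Il1b are also leading genes of the monocyte cluster whose share of the monocytes differed between samples. The part of that cluster in these differences was not tested. None of Lyve1, Ppbp or Mmp12 macrophages had a called member of this list, and in other macrophages 3 of 16 rose, Il1b (1.19 ± 0.16), Cxcl2 (1.75 ± 0.22) and the inhibitor Nfkbia (0.77 ± 0.13). The median of the list was 0.36 in monocytes and 0.69 in other macrophages. In fibroblasts 13 were tested, Rel fell by 1.51 on the log2 scale (SE 0.30), 3 differences were positive and the median was -0.56. Of the IL-4/STAT6 response, 11 of 14 genes were tested in monocytes, where Retnla fell by 3.26 on the log2 scale (SE 0.55) and the mannose receptor Mrc1 rose (2.36 ± 0.50), and Chil3 fell by 2.03 (SE 0.32) in Mmp12 macrophages. Chil3 also belongs to the list of monocyte genes.

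Some monocyte genes were higher in the 2 macrophage states that came largely from 1 library. Of a list of 10, 5 could be tested in each. In Lyve1 macrophages 2 of 5 rose (0.178% of all genes passed), Ly6c2 (4.00 ± 0.46) and Plac8 (1.84 ± 0.24). In Ppbp macrophages 3 of 5 rose (1.48% of all genes), Ly6c2 (0 UMIs in the αPD-1 samples tested against 1180, 600 and 20, at least 12.98-fold higher against a floor of 3 counts over the group), Plac8 (2.15 ± 0.38) and Ifitm6 (3.27 ± 0.63). The summed level of the 10 monocyte markers was 431 and 715 CPM in the αPD-1 samples of Ppbp macrophages that were tested, against 3079, 3041 and 2232 CPM, beside the Ccr2 values given above. Its part in the Ccr2 difference was not tested. Of the mature macrophage genes, Adgre1 (0.71 ± 0.14) and Ms4a7 (1.93 ± 0.41) rose in monocytes, 2 of 10. The summed level of the 10 macrophage markers in monocytes was 3821, 4597 and 3485 CPM against 8427, 7758 and 3515 CPM, with replicate 3 of the combination group again inside the αPD-1 range, as for Ccl7 and Ccl12, and its part in the monocyte results was not tested.

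The members' levels were compared with those of 6295 genes over 47 sums of sample and state. These sums share libraries and cell composition, and the correlations are descriptions. Ccl2 was most like Ccl7 (Pearson's r = 0.94), then the glycolytic enzyme Eno1 (0.86) and App (0.85). Ccl6 was most like Ccl9 (0.97), then the Fc receptor Fcgr3 (0.97) and the integrin Itgam (0.96). Ccl8 was most like the selenium carrier Selenop (0.91), Cela1 (0.89) and Adam15 (0.87), and Ccl12 like the complement receptor C3ar1 (0.95), the lysosomal protease Lgmn (0.95) and Cacna1d (0.94). Ccl24 had no close partner (Tfec 0.76, Snx3 0.76, B430306N03Rik 0.74). Ccr2 was most like Ms4a4c (0.94), Ifi209 (0.91) and Capza2 (0.90). Among the members, Ccr2 had r = 0.26 with Ccl2 and -0.15 with Ccl8. Ccl8, although it lies beside Ccl12, had r = 0.56 with it, while Ccl12 had 0.92 with Ccl9.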

How the data were processed

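CD45+ cells of 3 αPD-1 and 3 αPD-1 + corin samples were profiled with a droplet 5′ kit. The deposited matrices hold raw UMI counts per gene and barcode, which the authors made with Cell Ranger 8.0 on GRCm39 and read into Seurat 5.0.11, per the submitters' processing notes. Counting by UMI removes PCR copies and reads RNA at its 5′ end, so levels carry no length term. The study's stated limits on cells were applied (600 to 4000 genes, at most 10% mitochondrial UMIs). Its DoubletFinder calls were replaced by Scrublet scores (scanpy 1.11.5, 0.4% of barcodes per 1000), which removed 2002 barcodes of 52899. Cells were normalized with sctransform 0.4.2, clustered with Seurat 5.3.0 at resolution 0.8 and named from fixed marker lists, and the monocytes and macrophages were clustered again. The members and other CC genes were left out of the genes used for clustering. Clusters with markers of several lineages were set aside as mixed.

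UMI counts were summed per sample and state (at least 10 cells) and tested with edgeR 4.0.16 (quasi-likelihood, TMM, filterByExpr, Benjamini-Hochberg threshold 0.05 over all genes tested), because samples and not cells are the replicates. An interaction of state and treatment, a two-sided exact permutation test of the share of cells with a UMI after thinning to 1000 UMIs, and DESeq2 1.42.0 as an alternative were also run. Named genes were the 8 members, genes of the lists that passed in a monocyte or macrophage state, and for each member the 3 genes with the highest correlation of log2(CPM + 10) among those with a mean of at least 20 CPM. The members and lists were chosen with earlier results of these data known. On simulated counts with 200 genes changed 4-fold, the test recovered 192 with 12 false calls in Lyve1 macrophages (5035 genes) and 184 with 10 false calls in monocytes (8779 genes). The simulated counts had the same fixed dispersion for every gene and no outlying sample, and only genes above a minimum expected count were changed. These rates thus check that the test runs and do not give its power or error rate on the real counts. The labels do not tie samples to separate mice, so p-values measure the spread between these samples. Intervals and floors of 3 counts cover counting error only.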

Additional observations from a re-analysis of the deposited data

Results flagged for a closer look

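The effect of corin differed between monocyte and macrophage states for 3 members, by the interaction test in edgeR over 29 sums: Ccl6 (adjusted p = 0.00189), Ccr2 (adjusted p = 0.0137) and Ccl2 (adjusted p = 0.0331). For all 3 the lowest difference was in Mmp12 macrophages (-0.51, -0.39 and 0.28 on the log2 scale). Each of the 3 calls was lost without αPD-1 replicate 1.

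T cells, which had no fit of their own and entered only the sum over all cells kept, had higher levels of 5 members in every αPD-1 + corin sample than in any αPD-1 sample. The share of all genes whose groups lay apart in T cells was not computed, so this count is not read as particular to the members. The mean level in T cells with corin was 448 CPM for Ccl2, 228 CPM for Ccl7, 115 CPM for Ccl8, 46.7 CPM for Ccl24 and 144 CPM for Ccr2. By sample, Ccl2 was 114, 88.3 and 188 CPM against 795, 316 and 233 CPM, Ccl7 68.4, 58.4 and 73.3 CPM against 396, 194 and 93.0 CPM, and Ccl8 32.1, 27.4 and 42.9 CPM against 113, 102 and 130 CPM. Ccl24 was 0.892, 0.230 and 1.85 CPM against 38.5, 99.7 and 2.09 CPM, and Ccr2 86.8, 71.7 and 97.0 CPM against 222, 111 and 97.9 CPM. Replicate 1 carried much of the Ccl2 mean and replicate 2 much of the Ccl24 mean, and replicate 3 was close to the αPD-1 samples for Ccl24 and Ccr2. Free RNA and T cell barcodes that hold another cell as well were not tested as sources.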

How the results depend on the processing

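The calls of the members depended on the samples and on the settings. Summed over the 8 states, 5 calls of members became 11 with DESeq2, 40 with no filter on low counts, 9 with LogNormalize, 9 when cells of any gene number above the minimum were kept, 9 with at least 200 genes per cell, 8 at resolution 0.4 and 3 at resolution 1.2, and 0 to 30 with 1 sample left out (30 without αPD-1 + corin replicate 3). Over all monocytes and macrophages, 0 became 4 with DESeq2, 7 with no filter and 0 to 7 with 1 sample left out, 7 again without αPD-1 + corin replicate 3. Over all cells kept, 3 became 7 with DESeq2 and 0 to 8 with 1 sample left out. The 3 members whose effect differed between states became 0 to 6 with 1 sample left out, 0 without αPD-1 replicate 1, 1 without αPD-1 + corin replicate 1 or 2, and 6 without αPD-1 + corin replicate 3. With no filter, the standard error of Ccl2 in monocytes fell from 0.29 to 0.13 (edgeR adjusted p = 3.90e-25). The cause was not tested for any of these, and the share of all genes called is not given beside these totals. Calls were also lost where the counts rose. Of the monocyte calls, all 3 were lost at resolution 1.2, Ccl2 at 5% mitochondrial UMIs, Ccl7 with DESeq2 and Ccl8 with at least 200 genes per cell. Ccl8 was lost in neutrophils with LogNormalize and without doublet removal, and in fibroblasts without the upper gene limit. The highest edgeR or DESeq2 adjusted p over these and the block was 0.0620 for Ccl2, 0.0952 for Ccl7 and 0.0954 for Ccl8 in monocytes, and for Ccl8 0.117 in neutrophils and 0.183 in fibroblasts. No called value changed sign under the alternatives run. The fits of single clusters were chosen after seeing the data.

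With the replicate number as a block, the calls over states became 10 and those over all cells kept became 1. The block ended the calls of Ccl2 and Ccl7 in monocytes and over all cells kept. Correlations between same-numbered samples ran from -0.26 to 0.086, and in 1 of 9 states and pools every αPD-1 sample correlated best with the αPD-1 + corin sample of its own number, so the numbers were not taken to pair the samples. In fibroblasts 3 of 8 members had enough UMIs to be tested, and in Ppbp macrophages 2 αPD-1 samples had at least 10 cells.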
